A study of Mus musculus with 28 samples.

Results

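The cytosolic ribosome of the mouse is described here through the genes of its proteins, read in endothelial and mural cells sorted from brains with and without experimental metastasis. Members were the mouse gene symbols made of Rps or Rpl and a number, with at most 1 closing letter (a, x, y or l), together with Rpsa, Rplp0, Rplp1 and Rplp2, where both deposited log2 tables list them. Kinases of the S6 family were not taken. 80 genes met the rule, 31 of the small subunit, 46 of the large subunit and 3 of the stalk, out of 53647 gene IDs in the count table. Rpl32l, Rpl6l and Rps4l fit the symbol pattern but stood in neither log2 table and were left out.

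The study compared blood vessel cells of brain metastases (BrM) with those of non-tumor brain. All mice carried PDGFRb-CreERT2 and Rosa-tdTomato, in which tamoxifen (2 mg daily on 5 days) switches on the red reporter tdTomato in cells that use the Pdgfrb promoter. Breast BrM were grown from PyMT-BrM3 cells and lung BrM from Sv2T3-BrM1 cells, each a single brain-homing cancer line, injected into the heart. Suspensions were cleared by gating of cells with CD45, CD11B or EPCAM, and CD31-positive cells were taken as endothelial and tdTomato-positive cells as mural. The 6 groups were CD31 cells of breast BrM (5 libraries), those of lung BrM (5), those of non-tumor brain (5), PDGFRb cells of breast BrM (4), those of lung BrM (4), and those of non-tumor brain (5). These 28 libraries represent 15 mice or pools, 13 of them with both sorts, and 2 lung labels name 2 mouse numbers each.

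Ribosomes are built from ribosomal RNA and about equal numbers of copies of each protein, so cells make the proteins in parallel, and the messages are among the most abundant of any cell. Many of these messages begin with a run of pyrimidines, called a 5′ terminal oligopyrimidine tract or TOP, through which the kinase mTOR controls their translation, while the transcription factor MYC is known to raise ribosome production in growing cells. In adult brain most endothelial and mural cells are quiescent.

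The annotated start of the gene, where such a tract would stand, is shown for 8 members on which later results turn. Each line gives 10 bases before to 20 bases after the start on the gene's strand (RefSeq, build GRCm38.p6), and capitals mark a run of C or T that opens with C within 5 bases of the start and is followed by at least 4 further pyrimidines.
Rpl12, chr2:32961702-32961731, plus strand: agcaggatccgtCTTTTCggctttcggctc
Rps2, chr17:24720053-24720082, plus strand: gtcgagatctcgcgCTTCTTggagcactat
Rpsa, chr9:120127756-120127785, plus strand: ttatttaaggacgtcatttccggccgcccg
Rpl38, chr11:114668570-114668599, plus strand: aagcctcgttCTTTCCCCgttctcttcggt
Rps27, chr3:90213629-90213658, minus strand: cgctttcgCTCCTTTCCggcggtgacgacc
Rps27l, chr9:66946076-66946105, plus strand: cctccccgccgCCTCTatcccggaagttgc
Rpl7a, chr2:26910797-26910826, plus strand: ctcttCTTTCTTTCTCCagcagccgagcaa
Rpl4, chr9:64173377-64173406, plus strand: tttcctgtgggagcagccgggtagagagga
Rpl12 and Rps2 were among the members with the largest rises in the CD31 sort and had a run, whereas Rpsa, which rose as much, had none in this window, and neither had Rpl4. Rps27 and its paralog Rps27l, shown at the first of 2 annotated starts, had runs of 9 and 5 bases. Rpl38 and Rpl7a had marked runs of 8 and 12 bases and stood near the ends of the members' range in PDGFRb lung BrM. In Rpl7a the bases printed before the mark are also C or T, so its full pyrimidine stretch is longer. Of 60 members matched by symbol to the promoter table, 28 (46.7%) had such a run, against 17 of 69 mitochondrial ribosomal protein genes (24.6%) and 5718 of 27025 genes of the table (21.2%). In the 250 bases before to 50 after the start, the word CCGGAAG, known from ETS factors, stood on either strand in 25 of the 60 members (41.7%) and in 9.93% of all genes. The word ATGGCG, known from YY1, stood in 19 members (31.7%) and in 10.2% of all genes.

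Total counts per library lay between 7.11 M and 23.9 M. Pecam1, which encodes CD31, stood at 666 to 992, 586 to 1257 and 1266 to 1343 CPM (counts scaled to a common library total) in CD31 libraries (breast BrM, lung BrM, then non-tumor), and at most at 13.1 CPM in PDGFRb libraries. Pdgfrb stood at 310.3 to 1175, 36.4 to 446 and 876 to 1655 CPM in the PDGFRb libraries of the same 3 states. In PDGFRb lung BrM, 3 of 4 libraries (all but mouse 51435) had under 100 CPM of Pdgfrb, and their 10 pericyte markers summed to 201 to 358 CPM, against 7397 CPM in mouse 51435. Epithelial markers, typical of carcinoma cells, had counts in every BrM group and are given with the results. The PDGFRb breast library of mouse 51950 was the smallest and had the fewest genes detected (9189). For mouse 54135 the title and the cell type label name opposite sorts, and its libraries were grouped by title. In sorted bulk RNA, fewer cells of a type and less RNA per cell cannot be told apart, and p-values measure the spread between mice.

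Ribosomal protein genes took a larger share of all counts in BrM than in brain without tumor, in both sorts and both tumor origins. The 80 genes summed to 2.9, 5.03, 3.97, 2.53 and 2.88% of the counts in the CD31 breast BrM libraries and to 4.07, 6.19, 2.84, 3.04 and 4.2% in those of lung BrM, against 1.13, 1.39, 1.05, 1.58 and 1.41% in those of non-tumor brain. In PDGFRb libraries they summed to 4.44, 3.0, 2.99 and 3.51% in breast BrM and 4.02, 5.67, 5.66 and 3.45% in lung BrM, against 1.38, 1.9, 1.47, 0.961 and 1.05% in non-tumor brain. Every BrM library of a sort lay above every non-tumor library of that sort. The group means were 3.46 ± 1.03% and 4.07 ± 1.33% in CD31 breast and lung BrM, against 1.31 ± 0.217% in non-tumor brain (SD, n = 5 each), which are ratios of 2.64 and 3.1. In the PDGFRb sort they were 3.48 ± 0.678% and 4.7 ± 1.14% (n = 4 each), against 1.35 ± 0.372% (n = 5), which are ratios of 2.58 and 3.48. Lung BrM exceeded breast BrM 1.17 times in the CD31 and 1.35 times in the PDGFRb sort, with overlapping libraries in both. The sorts themselves hardly differed in non-tumor brain, where the PDGFRb mean was 1.03 times the CD31 mean. The summed share is a description over chosen genes and was not tested.

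**Figure D1:**
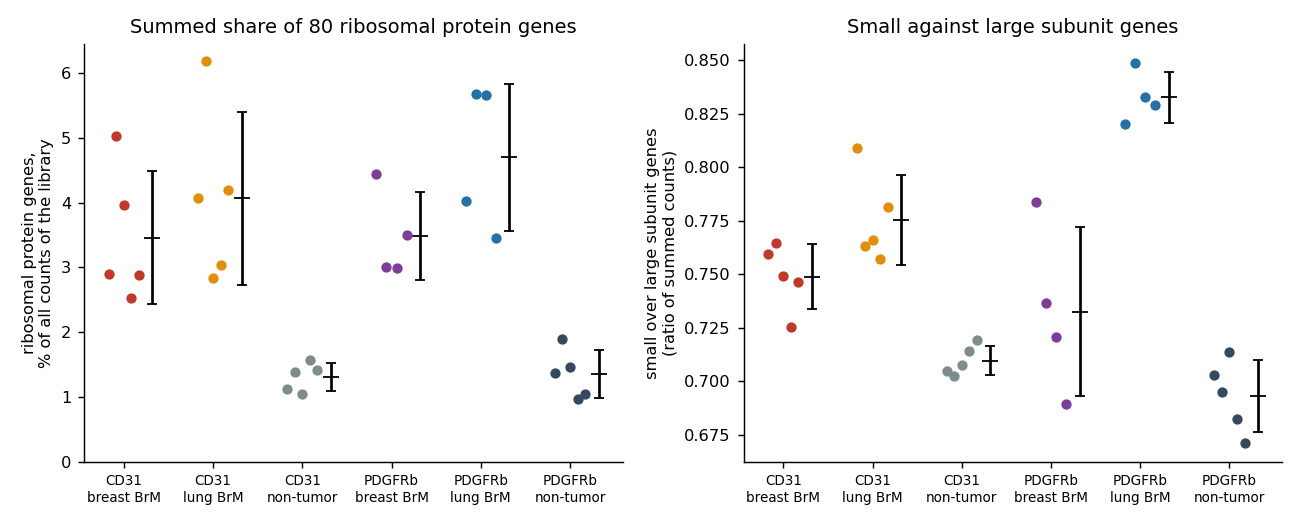
Left, share of all counts (percent) held by the 80 ribosomal protein genes in each library, by sort and state; right, summed counts of small subunit genes over those of large subunit genes (axis not from 0). Points are libraries, bars the mean ± SD. All BrM libraries lie above the non-tumor libraries of their sort on the left, and PDGFRb lung BrM stands highest on the right, at 0.82 to 0.849.

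In each group, most members were highest in the same library. How many of all genes were highest there was not counted, so nothing particular to the members is read from this. In CD31 breast BrM, 77 of 79 members with counts were highest in the same library, that of mouse 52599, and 71 were lowest in that of mouse 53072. In CD31 lung BrM, 78 of 79 were highest in mouse 51697. In non-tumor brain, 72 of 78 were highest in CD31 cells of mouse 56727, and all 79 were highest in PDGFRb cells of mouse 54132. PDGFRb BrM libraries shared this less, with 63 of 78 members highest in breast BrM mouse 51950 and 59 of 78 in lung BrM mouse 54957. Counts of small subunit genes were 0.749, 0.775 and 0.71 times those of large subunit genes on average in CD31 breast BrM, lung BrM and non-tumor libraries, with library ranges of 0.725 to 0.765, 0.757 to 0.809 and 0.703 to 0.719. The same ratio averaged 0.733 in PDGFRb breast BrM (0.689 to 0.783), 0.833 in lung BrM (0.82 to 0.849) and 0.693 in non-tumor brain (0.671 to 0.714). PDGFRb breast BrM overlapped with non-tumor brain in this ratio, and the other 3 BrM groups did not.

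In the CD31 sort nearly every member rose in BrM. The BrM libraries of this sort also held epithelial markers, whose part in the result was not tested. With edgeR's quasi-likelihood test over all genes and a Benjamini-Hochberg adjusted p under 0.05, 77 of 79 tested members rose in breast BrM and 0 fell, where 18.6% of all 14876 genes tested rose and 11.4% fell. In lung BrM 78 of 79 members rose and 0 fell, where 20.4% of all genes rose and 14.5% fell. No tested member had a negative log2 change in either comparison. The median change of members was 1.36 on the log2 scale in breast BrM (2.56-fold) and 1.66 in lung BrM (3.16-fold), against 0.04 and -0.00329 over all genes tested. Libraries of the 2 states did not overlap, with all BrM libraries above, for 72 members in breast BrM (18.1% of all genes) and for 77 in lung BrM (12.8% of all genes). Rpl10l, with 3 counts in 1 of 28 libraries, was the member not tested. The changes of the 2 origins share the non-tumor libraries.

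The stalk proteins, which recruit translation factors to the ribosome, rose in both origins. Rplp0, the base of the stalk, stood at 1234, 1866, 1411, 1165 and 1123 CPM in CD31 breast BrM and at 1679, 2025, 1174, 1245 and 1798 CPM in lung BrM, against 428, 491, 423, 509 and 466 CPM in non-tumor brain. These CPM, unlike those of the sort genes, are scaled by TMM, and no BrM library reached down to the non-tumor ones. Rplp0 rose 3.0-fold in breast BrM (log2 change 1.58 ± 0.19 SE, adjusted p = 9.2e-06) and 3.58-fold in lung BrM (log2 change 1.84 ± 0.19 SE, adjusted p = 2.0e-06). Its partners Rplp1 and Rplp2 rose by 1.59 and 1.72 in breast BrM (adjusted p = 0.0025 and 0.003) and by 1.87 and 1.96 in lung BrM (adjusted p = 0.00067 and 0.0011), all on the log2 scale.

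Among small subunit genes, 30 of 31 rose in breast BrM and 31 of 31 in lung BrM, with median log2 changes of 1.46 and 1.70. The largest rise among them was that of Rpsa, a protein of the subunit's surface also known as a receptor of laminin. Rpsa stood at 1064, 2242, 1440.3, 769 and 1058 CPM in CD31 breast BrM and 1445, 2347, 983, 959 and 1143 CPM in lung BrM, against 259.8, 323, 239.8, 337 and 314 CPM in non-tumor brain. All BrM libraries lay above all non-tumor libraries, and the rise was 4.55-fold in breast BrM (log2 change 2.19 ± 0.29 SE, adjusted p = 3.5e-05) and 4.89-fold in lung BrM (log2 change 2.29 ± 0.3 SE, adjusted p = 2.1e-05). Rps2, a protein of the mRNA entry site, rose to 1148, 1689, 1480.3, 890.1 and 1284 CPM in CD31 breast BrM and 1650.4, 2036, 1167, 1050.2 and 1455 CPM in lung BrM, against 335, 338, 349, 364 and 394 CPM in non-tumor brain (log2 change 1.89 ± 0.2 SE, adjusted p = 2.9e-06 in breast BrM, log2 change 2.11 ± 0.2 SE, adjusted p = 1.0e-06 in lung BrM). Its non-tumor libraries lay within a narrow range and far below the others. Rps28 rose by 2.2 in lung BrM (adjusted p = 4.2e-05).

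Rps6, the protein whose phosphorylation is the common readout of mTOR, rose by 1.1 in breast BrM and 1.27 in lung BrM (adjusted p = 0.0016 and 0.0005). Rps19, the gene first tied to Diamond-Blackfan anemia, rose by 1.07 and 1.36 (adjusted p = 0.001 and 0.00012), and the X-linked Rps4x by 1.47 and 1.5 (adjusted p = 0.0011 and 0.00083). Rps27, a zinc-binding protein, was the small subunit gene that missed the threshold in breast BrM. It stood at 195, 495, 303, 153 and 211 CPM in CD31 breast BrM and 401, 573, 231, 278 and 436 CPM in lung BrM, against 138, 167, 127, 198 and 168 CPM in non-tumor brain. Breast BrM overlapped with non-tumor brain in this gene (log2 change 0.79 ± 0.3 SE, adjusted p = 0.055), and lung BrM did not (log2 change 1.34 ± 0.3 SE, adjusted p = 0.0027). Its paralog Rps27l, a known target of p53 in mouse and human cells, rose by 1.16 and 1.06 (adjusted p = 0.00017 and 0.00034).

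Of the large subunit genes tested, 44 of 45 rose in each origin, with median log2 changes of 1.3 in breast and 1.53 in lung BrM. Rpl12, which sits at the base of the stalk, led them, the sparsely counted Rpl3l apart. It stood at 202, 399, 315, 149.6 and 221 CPM in CD31 breast BrM and 305, 558, 208, 202 and 266 CPM in lung BrM, against 49.5, 65.1, 44.8, 71.2 and 71.8 CPM in non-tumor brain, a rise of 4.34-fold (log2 change 2.12 ± 0.31 SE, adjusted p = 7.2e-05) and 5.34-fold (log2 change 2.42 ± 0.31 SE, adjusted p = 2.1e-05). All BrM libraries lay above all non-tumor libraries, with mouse 52599 highest in breast and mouse 51697 highest in lung BrM. Rpl10, a late-joining protein next to the catalytic center, rose by 1.88 and 1.99, and Rpl32 by 1.69 and 2.14, with adjusted p of at most 7.2e-05 for both genes. Rpl5 and Rpl11, which with 5S RNA hold back Mdm2 when ribosome assembly fails, rose by 1.3 and 1.29 in breast and 1.35 and 1.45 in lung BrM (largest adjusted p = 0.00086). Rpl3, of the peptidyl transferase region, rose by 1.12 and 1.41, Rpl13a by 1.43 and 1.73, Rpl39 of the exit tunnel by 1.78 and 2.01, and Rpl41, the smallest member protein, by 1.4 and 1.61 (largest adjusted p = 0.0061).

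The smallest rise among the members called belonged to Rpl22, a protein that cells can replace with its paralog Rpl22l1. Rpl22 stood at 89.9, 155, 127, 60.4 and 93 CPM in CD31 breast BrM and 115, 135, 79.6, 101 and 123 CPM in lung BrM, against 59.9, 70.2, 53.5, 71.9 and 70.2 CPM in non-tumor brain. The breast BrM library of mouse 53072 lay among the non-tumor libraries, and the rise was 1.64-fold (log2 change 0.72 ± 0.22 SE, adjusted p = 0.019), while in lung BrM no library overlapped (log2 change 0.83 ± 0.22 SE, adjusted p = 0.0072). The breast BrM call was lost without breast BrM mouse 52599 or 52865 or without non-tumor mouse 53680 or 54135, at log2 changes of 0.538 to 0.685. Rpl22l1, outside the symbol rule, rose by 1.18 and 1.43 (adjusted p = 0.0023 and 0.0005). Against the median of the members, Rpl22 lay 0.64 below in breast and 0.83 below in lung BrM, and Rpsa lay 0.83 and 0.63 above.

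**Figure D2:**
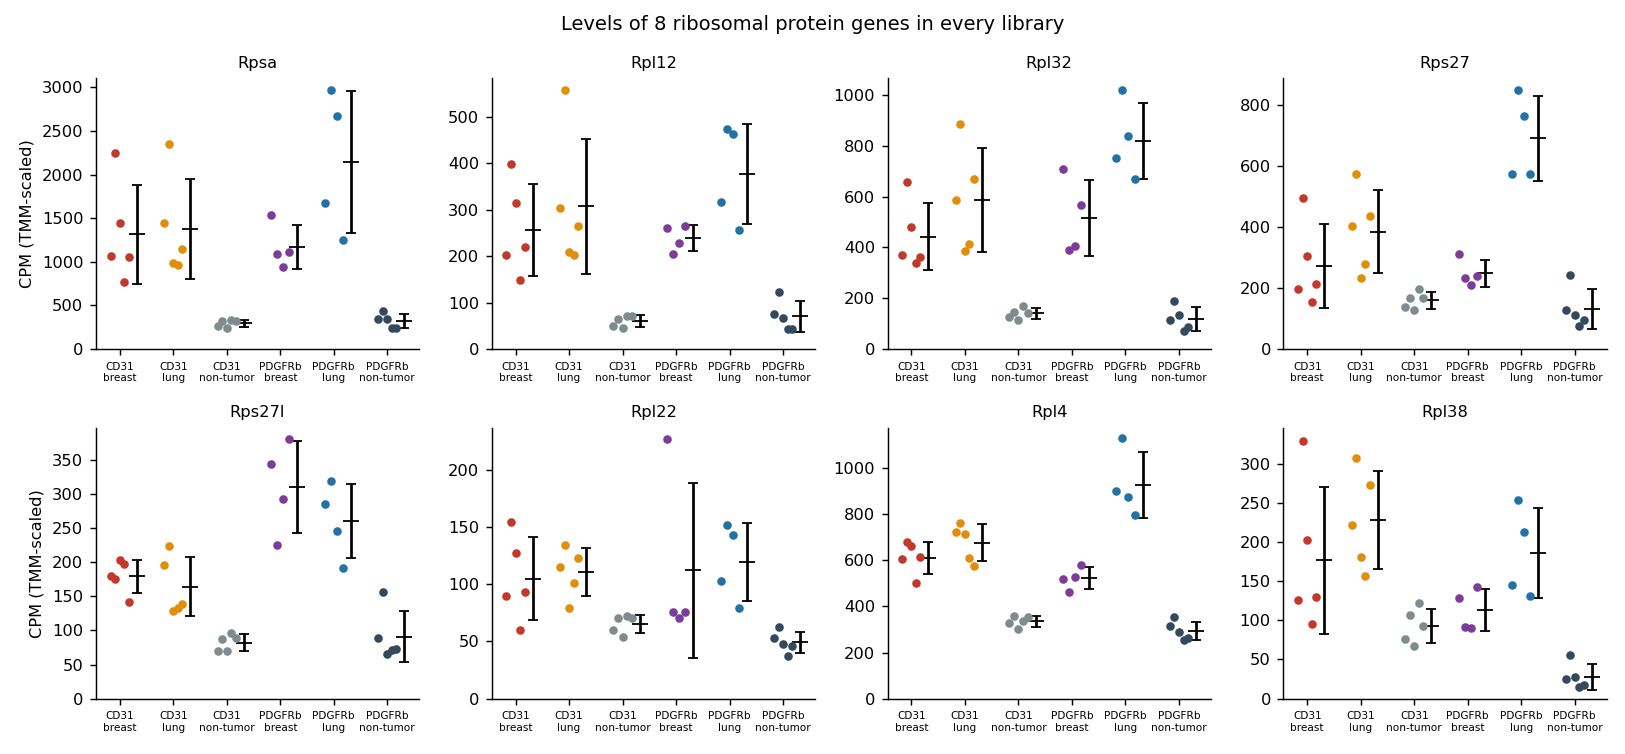
TMM-scaled CPM of 8 ribosomal protein genes in every library, by sort and state. Points are libraries and bars the mean ± SD. Rpl22 and Rps27 overlap between CD31 breast BrM and non-tumor brain, whereas Rpsa, Rpl12, Rpl32 and Rpl4 stand apart, and Rpl38 is lowest in PDGFRb non-tumor libraries.

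Between lung and breast BrM, 0 of 79 members were called in either direction in CD31 cells by edgeR, 0 had an unadjusted p under 0.05, and DESeq2 called 0, where 0.578% of all genes were higher and 1.55% lower in lung BrM. The log2 differences of members ran from -1.44 to 0.97 with a median of 0.26 (both ends belong to Rpl3l and Rpl39l), and 77 of 79 lay above 0. That median depended on the setting, at 0.00878 to 0.504 with single libraries left out and -0.381 with the date in the column names as a covariate. Rps7, a protein that has also been tied to Mdm2, had the smallest p, with 450.5, 618, 364, 326 and 481 CPM in lung BrM and 272, 526, 374, 216 and 296 CPM in breast BrM. The 2 origins overlapped in this gene (log2 change 0.45 ± 0.23 SE, adjusted p = 0.38). Rps27 and Rps28 lay farthest above the members' median, at 0.55 ± 0.3 SE and 0.54 ± 0.29 SE, and Rps27l and Rpl6 farthest below, at -0.1 ± 0.18 SE and 0.02 ± 0.21 SE, with adjusted p between 0.41 and 0.98.

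In the PDGFRb sort nearly every member rose as well, but 3 of the 4 lung BrM libraries were low in the markers of mural cells and high in epithelial markers, so which cells they hold is not known, and their part in the result was not tested. In PDGFRb breast BrM, 75 of 77 tested members rose and 0 fell, where 6.3% of all 17028 genes tested rose and 2.69% fell, and in lung BrM all 77 tested members rose, where 9.91% of all genes rose and 7.58% fell. Rpl39l, Rpl3l and Rpl10l, with few or no counts, were not tested in this sort. The median log2 changes of members were 1.65 (3.13-fold) and 1.97 (3.92-fold), against -0.16 and -0.03 over all genes. All BrM libraries lay above all non-tumor libraries for 74 members in breast (6.37% of all genes) and for 74 in lung BrM (18.9% of all genes). The rise in lung BrM was called for 18 of 78 members when the 3 libraries with low Pdgfrb were left out, where the one remaining library is assumed to vary like the other groups, and the median change was then 1.71 (0.736% of all genes rose in that fit). With the date in the column names as a covariate, 7 of 77 members were called in PDGFRb breast BrM and 28 of 79 in CD31 lung BrM, with median changes of 1.6 and 1.17 (0.523% and 6.53% of all genes rose in those fits).

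The stalk genes rose together in both origins, Rplp0 by 1.86 and 2.05, Rplp1 by 2.05 and 2.66 and Rplp2 by 2.06 and 1.89 on the log2 scale in breast and lung BrM, with adjusted p of at most 0.013. Rpl32 was among the largest rises in both. It stood at 709, 389.6, 406 and 567 CPM in PDGFRb breast BrM and 752, 1019, 839 and 671 CPM in lung BrM, against 113, 190.4, 133, 70.4 and 87.9 CPM in non-tumor brain. No library overlapped (log2 change 2.15 ± 0.29 SE, adjusted p = 0.0007 in breast BrM, log2 change 2.83 ± 0.29 SE, adjusted p = 3.8e-05 in lung BrM). Rpsa reached 1534, 1094, 944 and 1112 CPM in PDGFRb breast BrM and 1672, 2966, 2675 and 1250.0 CPM in lung BrM, against 341, 433, 348, 241 and 234 CPM in non-tumor brain (log2 change 1.9 ± 0.28 SE, adjusted p = 0.0012 and log2 change 2.79 ± 0.28 SE, adjusted p = 3.1e-05). Its lung BrM libraries of mice 54957 and 55169-70, both low in Pdgfrb, were the highest of the sort.

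Rpl39, a small protein of the exit tunnel, rose most in PDGFRb breast BrM. It stood at 446, 162, 159.5 and 224 CPM in breast BrM and 143, 189, 179 and 109.7 CPM in lung BrM, against 41, 87.3, 43.1, 30.6 and 29 CPM in non-tumor brain (log2 change 2.45 ± 0.4 SE, adjusted p = 0.0023 and log2 change 1.79 ± 0.39 SE, adjusted p = 0.007). The highest breast BrM value came from mouse 51950, the smallest library, and the other 3 libraries still lay above the non-tumor ones. Rpl36a rose by 2.11 in breast BrM (adjusted p = 0.0045), where mouse 51950 also stood highest. Rpl38, known in mouse embryos for its part in translating Hox messages, had 129, 91.3, 90.7 and 143 CPM in breast BrM and 145, 254, 213 and 131 CPM in lung BrM, against 24.4, 55.9, 26.9, 14.5 and 17.3 CPM in non-tumor brain. It rose 4.16-fold (log2 change 2.06 ± 0.39 SE, adjusted p = 0.0062) and 6.91-fold (log2 change 2.79 ± 0.4 SE, adjusted p = 0.00049) without overlap. Rps7 rose by 2.81 in lung BrM (adjusted p = 0.00063).

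Other members named in both sorts rose in PDGFRb cells too. In breast and lung BrM the log2 changes were 1.44 and 1.22 for Rps6, 1.69 and 2.14 for Rps19, 1.66 and 1.53 for Rps4x, and 1.8 and 1.56 for Rps27l. They were 1.33 and 1.88 for Rpl3, 1.69 and 2.21 for Rpl5, 1.4 and 1.48 for Rpl11, 1.69 and 2.13 for Rpl13a and 1.63 and 1.3 for Rpl41, with the largest adjusted p of these 9 genes at 0.02. The exceptions in breast BrM were Rps27 (log2 change 0.96 ± 0.3 SE, adjusted p = 0.062) and Rpl22 (log2 change 1.21 ± 0.38 SE, adjusted p = 0.061). Rpl22 had 227, 75.4, 70.3 and 75.8 CPM in PDGFRb breast BrM and 103, 152, 143 and 79.5 CPM in lung BrM, against 52.9, 62.4, 48, 37 and 46 CPM in non-tumor brain. Groups did not overlap in Rpl22, but 1 breast BrM library, that of mouse 51950, stood far above the other 3. The least increased members of lung BrM were Rpl7a (log2 change 0.92 ± 0.23 SE, adjusted p = 0.014) and Rpl10 (log2 change 1.06 ± 0.27 SE, adjusted p = 0.014), and in breast BrM Rpl4 (log2 change 0.86 ± 0.17 SE, adjusted p = 0.0071). Rpl10 stood at 795, 732, 751 and 521 CPM in PDGFRb lung BrM, against 361, 551, 316, 232 and 268 CPM in non-tumor brain, so 1 lung BrM library lay below the highest non-tumor library. In lung BrM, leaving out single libraries left 71 to 77 members called, and it ended the calls of 4 of the members named here. Rpl7a was lost without lung mouse 51435, 54957 or 55169-70, Rpl10 without lung mouse 55169-70, Rpl22 without lung mouse 54957 or 55169-70 or any of non-tumor mice 53680, 54135, 56727 and 56740, and Rpl41 without lung mouse 54957 or 55169-70 or non-tumor mouse 54135 or 56740.

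**Figure D3:**
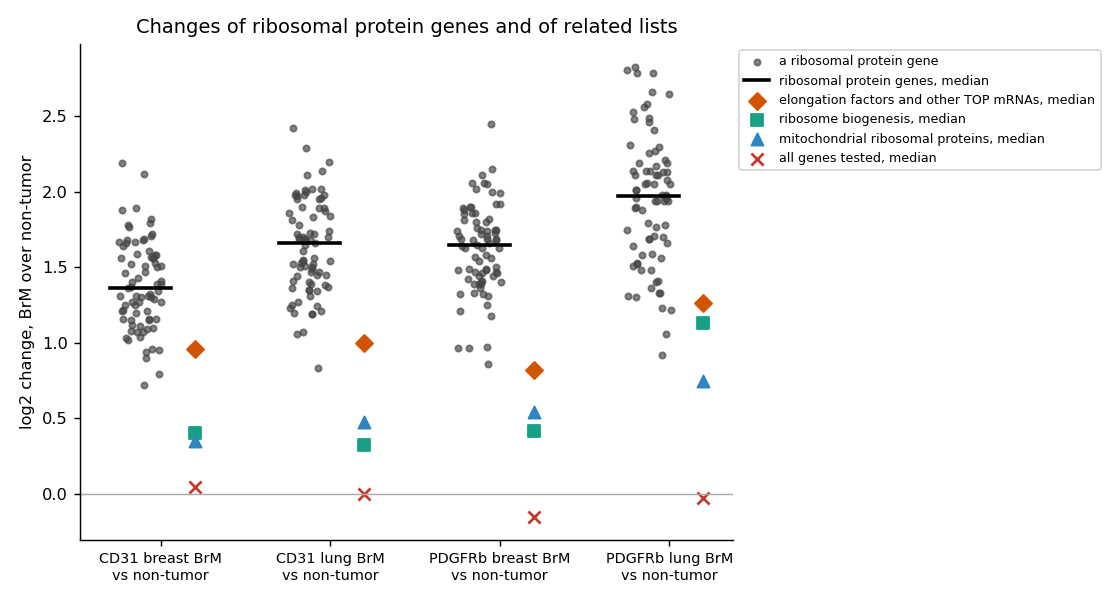
Log2 changes of BrM over non-tumor libraries for the ribosomal protein genes whose log2 CPM averaged 3 or more (grey points), by sort and origin. Black lines are the members' medians, colored marks the medians of related gene lists, and red crosses the median of all genes tested. The members' medians lie at 1.36, 1.66, 1.65 and 1.97 from left to right, above those of all lists drawn.

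Between lung and breast BrM in PDGFRb cells, 3 of 77 members were higher in lung BrM and 0 lower, where 3.08% of all genes were higher and 2.39% lower. The members' share (3.9%) is near that of all genes, so nothing particular to the members is read from it. Rps27 stood at 572, 846, 763 and 573 CPM in lung BrM, against 310.3, 233, 209 and 238 CPM in breast BrM (log2 change 1.5 ± 0.33 SE, adjusted p = 0.018). Rpl34 stood at 521, 760.2, 617 and 459.7 CPM in lung BrM, against 302, 236, 231 and 294 CPM in breast BrM (log2 change 1.17 ± 0.27 SE, adjusted p = 0.024), and Rpl4 at 899.8, 1130.2, 875 and 797 CPM, against 520.5, 461, 527 and 578 CPM (log2 change 0.84 ± 0.18 SE, adjusted p = 0.017). The 2 origins did not overlap in these 3 genes, and in how many of all genes they did not was not counted. Rpl10 and Rpl39 lay farthest below the members' median, at -0.68 ± 0.28 SE and -0.65 ± 0.41 SE, and missed the threshold (adjusted p = 0.17 and 0.41). Without the 3 lung BrM libraries low in Pdgfrb, 0 members were called. Single libraries moved the count, to 8 without breast mouse 51950, to 1 without breast mouse 52865 and to 0 without breast mouse 52599 or lung mouse 54957 or 55169-70. 0 were called without the lung samples of 2 mouse numbers or with the date as a covariate.

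The PDGFRb and CD31 sorts of the same state differed in few members. In non-tumor brain, 1 member was higher and 2 lower in PDGFRb than in CD31 cells, where 17.4% of all 18548 genes tested were higher and 10.5% lower. The higher one was Rpl3l, at very low counts. Rpl38 stood at 24.4, 55.9, 26.9, 14.5 and 17.3 CPM in PDGFRb non-tumor libraries, against 75.9, 106, 66.8, 122 and 92.4 CPM in CD31 non-tumor libraries (log2 change -1.74 ± 0.35 SE, adjusted p = 0.00033), with no overlap. Rps3, which also acts in DNA repair, was lower in PDGFRb cells by a smaller amount (log2 change -0.52 ± 0.18 SE, adjusted p = 0.034), and its libraries overlapped. The call of Rps3 was lost in 11 of 28 left-out settings and in 9 of 11 other settings. Rpl21 and Rpl10 lay farthest above and Rps12, beside Rpl38, farthest below the members' median, at 0.42, 0.35 and -0.62, with adjusted p between 0.22 and 0.36. With the mouse as a block, 1 of these members was called, in place of 3.

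In breast BrM, 1 member was higher and 1 lower in PDGFRb than in CD31 cells, where 9.0% of all genes were higher and 7.51% lower. Rps27l stood at 345, 225, 293 and 381 CPM in PDGFRb breast BrM, against 179, 176, 203, 197 and 142 CPM in CD31 breast BrM, with no overlap (log2 change 0.79 ± 0.24 SE, adjusted p = 0.023). In lung BrM 1 member was higher and 1 lower, where 10.2% of all genes were higher and 9.36% lower. Rpl4 stood at 899.8, 1130.2, 875 and 797 CPM in PDGFRb lung BrM, against 722, 764, 715, 611 and 575 CPM in CD31 lung BrM, again with no overlap (log2 change 0.45 ± 0.14 SE, adjusted p = 0.027). The call of Rpl4 was lost in 8 of 28 left-out settings. Rpl39l was the lower member in both. With the mouse as a block, 0 members were called in breast and 1 in lung BrM, and without the 3 lung libraries low in Pdgfrb 1 was called in breast and 0 in lung BrM. In breast BrM 1 was called without CD31 mouse 52599 or 53142 or PDGFRb mouse 51950, 52865 or 53072. In lung BrM 10 were called without CD31 mouse 51697, 5 without PDGFRb breast mouse 51950 or PDGFRb non-tumor mouse 54132, 4 without CD31 mouse 51435, and 1 without CD31 mouse 55169-70 or 56195-56520 or PDGFRb mouse 54957 or 56195-56520.

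The response to BrM itself was compared between the sorts by the difference of the 2 changes in one fit. For breast BrM, 0 members had a positive and 1 a negative difference, where 2.35% of all genes had a positive and 3.57% a negative difference, 4 members had an unadjusted p under 0.05, and DESeq2 called 1. For lung BrM, 1 had a positive and 1 a negative difference, where 3.77% and 6.35% of all genes did. Rpl4 rose more in PDGFRb cells by 0.64 ± 0.2 SE (adjusted p = 0.037). This call was lost in 15 of 28 left-out settings and in 10 of 11 other settings. Rpl3l, at 0 counts in CD31 non-tumor libraries, was the negative one in both. Rpl38 came next in lung BrM, with a difference of 1.44 ± 0.49 SE (adjusted p = 0.059), and Rpl10 and Rpl7a lay farthest below the median, at -0.91 ± 0.37 SE and -0.76 ± 0.3 SE (adjusted p = 0.13 and 0.11). In breast BrM the farthest were Rpl38 and Rps23, at 1.1 ± 0.49 SE and 0.87 ± 0.39 SE, and Rpl28 and Rpl12, at -0.36 ± 0.44 SE and -0.32 ± 0.44 SE, none past the threshold. Under the block 0 members were called in either. The lung count was 6 without PDGFRb breast mouse 51950 or PDGFRb non-tumor mouse 54132, 5 without CD31 lung mouse 51697, 4 without PDGFRb non-tumor mouse 56727, and 0 or 1 in 9 and 8 of the 28 left-out settings. The breast count was 2 without PDGFRb non-tumor mouse 54132. Across 77 members tested in both sorts, which are not independent replicates, the changes in the 2 sorts correlated at r = 0.54 (rho = 0.5) for breast and r = 0.47 (rho = 0.45) for lung BrM, from libraries that do not overlap but come largely from the same mice.

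**Figure D4:**
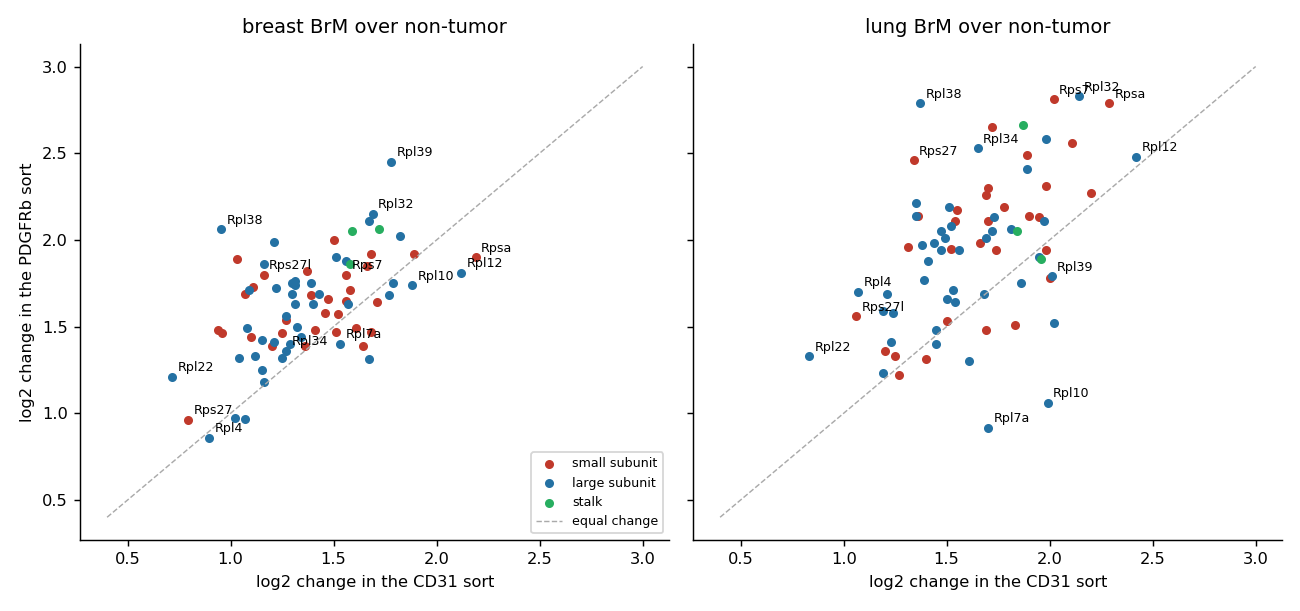
Log2 change of each ribosomal protein gene whose log2 CPM averaged 3 or more in the PDGFRb sort against its change in the CD31 sort, for breast BrM (left) and lung BrM (right), BrM over non-tumor libraries. The dashed line marks equal change. In lung BrM, Rpl38 and Rps27 lie above the line, and Rpl10 and Rpl7a below it.

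Rpl3l, Rpl39l and Rpl10l, paralogs with a name ending in l, behaved unlike the rest, at very low counts. Rps27l, whose name also ends in l, was well counted and rose with the other members. Rpl3l, the form of Rpl3 known from heart and skeletal muscle, had 9, 33, 41, 6 and 48 counts in CD31 breast BrM libraries and 8, 0, 23, 15 and 0 in lung BrM libraries, against 0 in each of the 5 CD31 non-tumor libraries. It passed the filter on low counts through BrM libraries alone, so its calls are no support, and without it 76 of 78 members rose in breast and 77 of 78 in lung BrM. It stood at least 49.2-fold higher in breast and 18.9-fold higher in lung BrM, taking 3 counts over the group as the floor of non-tumor brain. Without lung BrM mouse 54957 the limit in lung BrM was 11.6-fold. All 5 breast BrM libraries held counts, and 2 of 5 lung BrM libraries held none. In PDGFRb cells the pattern was another, with 0, 4, 0 and 1 counts in breast BrM and 20, 0, 0 and 0 in lung BrM, against 8, 86, 0, 0 and 14 in non-tumor brain, where mouse 54132 held most of them. The PDGFRb non-tumor level was at least 36.6-fold higher than the CD31 non-tumor level by the same floor, although 2 of its 5 libraries held none, and at least 9.34-fold higher without mouse 54132. With Rpl3l at its bound, the members' medians were 1.36, 1.66 and -0.2 in these 3 comparisons. Reads that Rpl3l shares with the far more abundant Rpl3 could be split between them, so its counts are uncertain.

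Rpl39l, the form of Rpl39 known from mouse testis, had 14, 1, 15, 6 and 87 counts in CD31 breast BrM libraries and 2, 62, 17, 28 and 69 in lung BrM libraries, against 13, 11, 1, 12 and 11 in CD31 non-tumor libraries. The groups overlapped, and neither change passed the threshold (adjusted p = 0.39 and 0.11). All 8 PDGFRb BrM libraries had 0 counts, against 1, 5, 0, 0 and 4 in PDGFRb non-tumor libraries. It was at least 29.3-fold lower in PDGFRb than in CD31 breast BrM and at least 51.5-fold lower in lung BrM, again against 3 counts over a group. Of the 123 counts in CD31 breast BrM, 87 came from mouse 53142, without which that limit was 11.1-fold. Rpl39l was tested between the sorts because of its counts in CD31 libraries, so its calls there are no support either. Rpl10l was listed with counts in 1 library only, a CD31 non-tumor one. Ribosomal protein genes have many processed pseudogenes of near-identical sequence, so single members' counts also rest on how shared reads were divided. IDs named as such pseudogenes held 0.0053% to 0.0269% of the counts.

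Per length, members spanned a wide range. Members were ordered by mean FPKM over the 28 libraries. The top of the order included Rps27 at 3235 ± 2141, Rpl41 at 3126 ± 1711 and Rps14 at 2765 ± 1439 (SD over libraries). This SD takes in the differences between states, so it does not measure differences between genes, and the order was not tested. The lowest were Rpl22 at 261 ± 147, Rpl39l at 1.66 ± 2.91, Rpl3l at 0.711 ± 1.26, and Rpl10l. Of all summed FPKM, members held 11.4 ± 2.73%, 12.8 ± 3.07% and 5.35 ± 0.699% in CD31 breast BrM, lung BrM and non-tumor libraries (n = 5 each). In PDGFRb libraries they held 10.4 ± 1.64%, 14.2 ± 2.78% (n = 4 each) and 5.04 ± 1.01% (n = 5) in the same states.

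Other genes of protein synthesis were read from further lists, in the 4 comparisons in which 18.6, 20.4, 6.3 and 9.91% of all genes tested rose (CD31 breast, CD31 lung, PDGFRb breast, PDGFRb lung). Of 8 cytosolic ribosomal proteins that the symbol rule leaves out, 6 of 8 in CD31 breast BrM (median log2 change 1.19), 7 of 8 in CD31 lung BrM (median log2 change 1.54), 5 of 8 in PDGFRb breast BrM (median log2 change 1.43) and 7 of 8 in PDGFRb lung BrM (median log2 change 1.93) rose and 0 fell. In CD31 breast BrM, Rack1, a scaffold on the small subunit, averaged 690.0 ± 219 CPM, against 229 ± 30.3 CPM in non-tumor brain (log2 change 1.62 ± 0.23 SE, adjusted p = 4.9e-05). In PDGFRb lung BrM it averaged 1080.0 ± 339 CPM, against 195 ± 51.3 CPM in non-tumor brain. Of the elongation factors and other messages with a known TOP, 13 of 19 in CD31 breast BrM (median log2 change 0.96), 15 of 19 in CD31 lung BrM (median log2 change 1.0), 8 of 19 in PDGFRb breast BrM (median log2 change 0.82) and 13 of 19 in PDGFRb lung BrM (median log2 change 1.26) rose and 0 fell. In CD31 breast BrM, Pabpc1, the poly(A)-binding protein, averaged 416 ± 64.4 CPM, against 122 ± 20.5 CPM in non-tumor brain (log2 change 1.8 ± 0.17 SE, adjusted p = 8.9e-07). Mitochondrial ribosomal proteins, which are made in the cytosol for another ribosome, rose for 22 of 78 in CD31 breast BrM (median log2 change 0.35), 37 of 78 in CD31 lung BrM (median log2 change 0.47), 7 of 78 in PDGFRb breast BrM (median log2 change 0.54) and 8 of 78 in PDGFRb lung BrM (median log2 change 0.74), with 1 lower in CD31 breast BrM and 0 in the others. The 2 PDGFRb counts are near the share of all genes that rose.

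Of the ribosome biogenesis factors, 10 of 45 in CD31 breast BrM (median log2 change 0.4), 14 of 45 in CD31 lung BrM (median log2 change 0.32), 4 of 45 in PDGFRb breast BrM (median log2 change 0.42) and 12 of 45 in PDGFRb lung BrM (median log2 change 1.13) rose and 0 fell. The counts in breast BrM, in either sort, are near the share of all genes that rose. In CD31 lung BrM, Nhp2, a protein of H/ACA particles that modify ribosomal RNA, averaged 115 ± 42.5 CPM, against 32.7 ± 5.68 CPM in non-tumor brain (log2 change 1.88 ± 0.23 SE, adjusted p = 1.2e-05). Of the initiation factors, 9 of 27 in CD31 breast BrM (median log2 change 0.33), 12 of 27 in CD31 lung BrM (median log2 change 0.39), 7 of 27 in PDGFRb breast BrM (median log2 change 0.28) and 9 of 27 in PDGFRb lung BrM (median log2 change 0.6) rose, and 2, 3, 0 and 0 fell. Hosts of small nucleolar RNAs rose for 5 of 8 in CD31 breast BrM (median log2 change 1.18), 6 of 8 in CD31 lung BrM (median log2 change 1.16), 1 of 8 in PDGFRb breast BrM (median log2 change 0.57) and 3 of 8 in PDGFRb lung BrM (median log2 change 1.34), with 0 lower. Of 25 genes that control growth, 7 of 25 in CD31 breast BrM (median log2 change 0.08), 6 of 25 in CD31 lung BrM (median log2 change -0.08), 4 of 25 in PDGFRb breast BrM (median log2 change 0.17) and 3 of 25 in PDGFRb lung BrM (median log2 change -0.04) rose, and 3, 6, 1 and 0 fell. These counts lie within a few genes of the share of all genes that rose. Myc, which is not a ribosomal protein but acts on their genes, averaged 33.2 ± 14.3 CPM, against 0.998 ± 0.543 CPM in non-tumor brain (log2 change 5.09 ± 0.44 SE, adjusted p = 4.0e-07) in the CD31 breast comparison. In PDGFRb lung BrM it averaged 99 ± 27.2 CPM, against 11.5 ± 3.59 CPM in non-tumor brain (log2 change 3.14 ± 0.37 SE, adjusted p = 9.1e-05). Eif4ebp1, a brake on translation under mTOR, averaged 154 ± 64.2 CPM, against 34.8 ± 4.39 CPM in non-tumor brain (log2 change 2.17 ± 0.24 SE, adjusted p = 4.1e-06) in the CD31 breast comparison. Mtor itself had log2 changes between -0.68 and -0.115 in the 4 comparisons and passed in none (adjusted p = 0.17 to 0.68). Others of this list fell. Mycn averaged 0.457 ± 0.485 CPM in PDGFRb breast BrM, against 15.7 ± 19.2 CPM in non-tumor brain (log2 change -4.98, adjusted p = 0.048). Max fell in CD31 breast and lung BrM (log2 changes -0.908 and -1.04, adjusted p = 0.022 and 0.0091). Deptor rose in CD31 breast, PDGFRb breast and PDGFRb lung BrM (log2 changes 2.06, 3.56 and 2.81). These lists are described by counts and medians only, and nothing particular to them is read from either.

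Several measures of the libraries are set beside the members' shares, and their part in the result was not tested. In CD31 libraries the 10 endothelial markers summed to 5714 to 10920 CPM in breast BrM and 7704 to 11530 CPM in lung BrM. In CD31 non-tumor libraries they summed to 12790 to 14370 CPM, without overlap. Of these 10 markers, 3 fell and 1 rose in each origin. The 10 epithelial markers, among them Krt8, Krt18 and Epcam, summed to 1087, 125, 269, 2985 and 248 CPM in CD31 breast BrM libraries and 2244, 1296, 577, 92.8 and 242 CPM in lung BrM libraries, against 0.164 to 7.69 CPM in non-tumor libraries. In PDGFRb libraries they summed to 914, 1780.0, 2069 and 3909 CPM in breast BrM and 5876, 9068, 8538 and 10370.0 CPM in lung BrM, against 5.57 to 70.4 CPM in non-tumor brain. All 10 had counts in each group except PDGFRb lung BrM, where Esrp1 had none. In the same order of libraries, the member shares were 2.9, 5.03, 3.97, 2.53 and 2.88% in CD31 breast BrM and 4.07, 6.19, 2.84, 3.04 and 4.2% in lung BrM. The 9 microglia and macrophage markers summed to 1.29 to 71.6 and 13 to 198 CPM in CD31 breast and lung BrM and 1.49 to 5.51 CPM in non-tumor brain, and to 52.6 to 820.0, 18.1 to 270.1 and 3.15 to 32.9 CPM in the PDGFRb groups. The 6 astrocyte markers summed to 349 to 706 and 274 to 609.7 CPM in CD31 breast and lung BrM and 100.4 to 176 CPM in non-tumor brain, without overlap, where 2 and 1 of the 5 tested rose and 1 and 2 fell. In the PDGFRb groups of the same 3 states they summed to 252 to 798, 101 to 291 and 266 to 4306 CPM. The 7 smooth muscle markers, which a mural sort should hold, summed to 2516 to 9298, 133 to 3300.0 and 5779 to 26680.0 CPM there, and all 7 fell in lung BrM and 0 in breast BrM. The 10 pericyte markers summed to 5521 to 12970.0, 201 to 7397 and 17440.0 to 28290.0 CPM. Mitochondrially encoded genes held 1.61 to 2.35% and 0.998 to 3.0% of counts in CD31 breast and lung BrM and 1.3 to 1.98% in non-tumor brain, with overlapping ranges.

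**Figure D5:**
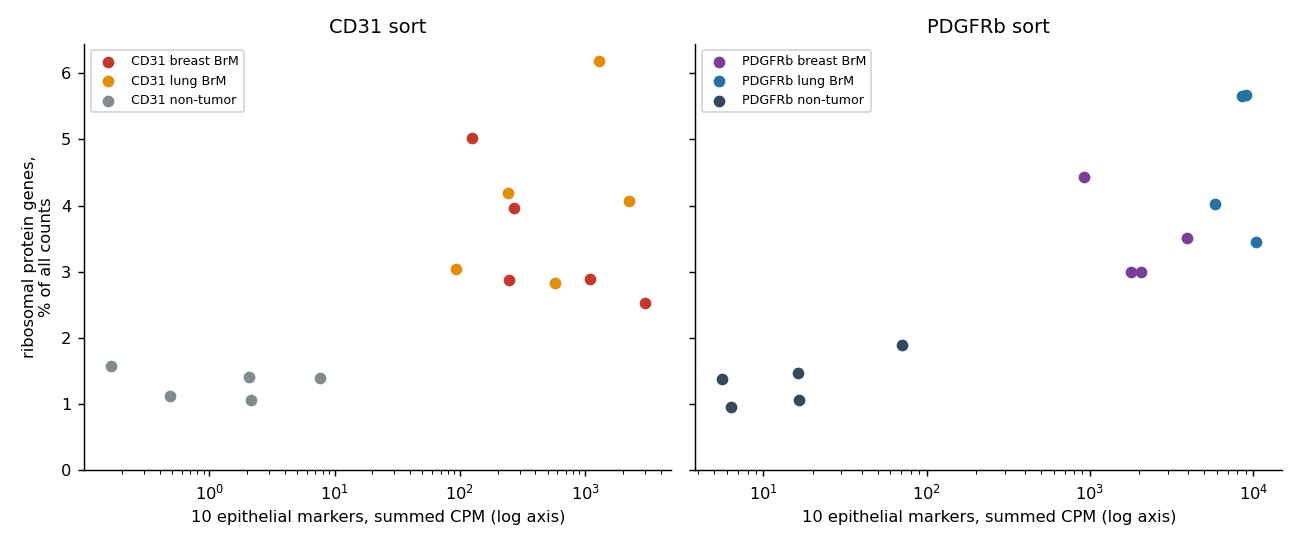
Share of all counts held by the 80 ribosomal protein genes (percent) against the summed CPM of 10 epithelial markers on a log axis, per library, in the CD31 sort (left) and the PDGFRb sort (right). BrM libraries lie to the upper right of the non-tumor libraries in both sorts, and the part of these markers in the result was not tested.

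The lengths implied by counts and FPKM were 90 to 1552 bases for members, with a median of 378 bases, so length was set beside the result. These implied lengths can be shorter than the messages themselves. Genes that are not members but no longer than the longest member had median log2 changes of 0.22 and 0.33 in CD31 and 0.24 and 0.35 in PDGFRb breast and lung BrM, against 1.36 to 1.97 for members. These other genes were limited in length by the longest member only and were not matched to the members in length. The part of length in the result was therefore not tested. The shorter 40 members in CD31 had medians of 1.37 and 1.67 and the longer 39 of 1.31 and 1.54. In PDGFRb the shorter 39 had 1.69 and 2.11 and the longer 38 had 1.56 and 1.89. Members with and without the pyrimidine run at the start had medians of 1.35 and 1.31 in CD31 breast BrM, 1.67 and 1.61 in CD31 lung BrM, 1.67 and 1.69 in PDGFRb breast BrM and 1.96 and 1.77 in PDGFRb lung BrM. Only members matched to the promoter table are split here, and the 2 words follow in the same order of comparisons. With and without the word CCGGAAG the medians were 1.34 and 1.37, 1.65 and 1.61, 1.77 and 1.66, and 1.92 and 1.94. With and without the word ATGGCG they were 1.26 and 1.52, 1.46 and 1.78, 1.49 and 1.71, and 1.96 and 1.9. None of these differences was tested.

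The column names carry 6 dates, whose meaning is not given in the sources used here, and 3 of them hold BrM and non-tumor libraries of one sort. On each of these the BrM libraries exceeded the non-tumor ones in member share. In CD31 breast BrM the shares were 2.9% and 2.53%, against 1.13% in the one non-tumor library of that date, and 5.03%, 3.97% and 2.88%, against 1.05%, on another. In CD31 lung BrM they were 2.84% and 4.2%, against 1.58% and 1.41%. In PDGFRb breast BrM they were 4.44% and 3.51%, against 1.38%, and 3.0% and 2.99%, against 1.47%, and in lung BrM 5.67% and 3.45%, against 0.961% and 1.05%. Within these dates every BrM library lay above every non-tumor library for 78, 79 and 78 of 79 members in the CD31 sort and for 77 of 77 members in each PDGFRb set. With 2 or 3 BrM and 1 or 2 non-tumor libraries in a set, the same held for 43, 36.1 and 24.9% of all genes tested in the CD31 sets and for 16, 38 and 36.8% in the PDGFRb sets. For the members the TMM scaling was that of all 28 libraries, and for all genes that of the sort, so the scalings differ.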

How the data were processed

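RNA from CD31 and PDGFRb sorts of 15 mice or pools was sequenced with SMART-Seq HT and Nextera XT, per the labels' protocols, a kit pair that does not mark strand. Per the submitters' processing notes, reads were processed with STAR 2.7.9a and RSEM 1.3.3 on build mm10, and edgeR 3.36.0 and limma 3.50.3 were used; the role of each is not stated there. The authors deposited expected counts per gene ID, not normalized, for 28 libraries. Totals were 7.11 M to 23.9 M counts per library. They also deposited FPKM values, and log2 normalized values, 1 table per sort. 52093 of 53647 IDs have a symbol.

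Expected counts were rounded to whole numbers and fitted with edgeR 4.0.16 (R 4.3.3) by quasi-likelihood after filtering of low counts and TMM scaling, within each sort for BrM comparisons and over all 28 libraries for comparisons between sorts, with Benjamini-Hochberg adjustment over all genes tested. FPKM served for levels per length, and the deposited log2 values for the member rule and 1 alternative fit with limma 3.58.1. DESeq2 1.42.0, other scalings, no filter, a date covariate, the mouse as a block and leaving out libraries were alternatives. Named genes are 20 members fixed by symbol, the 4 largest rises and falls among members called in each comparison (all where fewer, the smallest p where none), the 2 farthest above and below the members' median, among those whose log2 CPM averaged 3 or more, the 4 highest and lowest by mean FPKM, and called genes of the further lists with large changes, of which some are printed. Rpl22l1, Mtor and Max were named after their values were seen. Members, lists and tests were chosen with earlier results of these data known. The model code was tested on simulated data. Reads carry no molecular identifiers, so floors cover counting error only. Pairing comes from the mouse numbers: deviations of the 2 sorts of a mouse correlated at -0.11 to 0.37 over 13 pairs (median 0.045, 3 over 0.1). Replicate libraries differed beyond sampling noise (smallest chi-square per degree of freedom 17.6). Protein sequences were not analysed here, and the level of 1 member named by the FPKM rule is not reported here.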

Additional observations from a re-analysis of the deposited data

Results flagged for a closer look

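In 15 of 124 groups of 4 or 5 libraries examined, 1 library lay far from the others. The groups covered the members fixed by symbol, the summed share and the ratio of small to large subunit genes. Chance gives about 1 in 20 for a single group, but the genes share libraries. The groups are therefore not independent, and the count is not set against that rate. The PDGFRb breast BrM library of mouse 51950, the smallest of the series, stood apart as the highest for Rplp2 (761 CPM), Rps6 (1050.0 CPM), Rpl11 (313 CPM), Rpl13a (772 CPM), Rpl22 (227 CPM) and Rpl41 (1380.0 CPM). The CD31 lung BrM library of mouse 51697 stood apart as the highest for Rps4x (1250.0 CPM) and Rpl10 (1700.0 CPM). The PDGFRb non-tumor library of mouse 54132 stood apart as the highest for Rps27l (157 CPM), Rpl39 (87.3 CPM) and Rpl3l (4.42 CPM).

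Sparsely counted paralogs gave the other 4. Rpl39l was highest in CD31 breast BrM mouse 53142 (4.42 CPM) and lowest in CD31 non-tumor mouse 54135 (0.0568 CPM). Rpl3l was highest in PDGFRb lung BrM mouse 51435 (1.02 CPM), and Rpl10l in CD31 non-tumor mouse 54132 (0.187 CPM). For Rpl3l and Rpl10l, a single library of the group held all its counts, so that library stood apart whatever its level.

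The change in BrM differed between PDGFRb and CD31 cells for 3 results by edgeR's quasi-likelihood test of the difference. Rpl3l differed in breast BrM (adjusted p = 0.02) and in lung BrM (adjusted p = 0.049), with 0 counts in all CD31 non-tumor libraries, so it was tested through the groups that held counts and its calls are no support. Rpl4 differed in lung BrM (adjusted p = 0.037), where the rise was the larger in PDGFRb cells. That call was lost in 15 of 28 settings with 1 library left out and in 10 of 11 other settings.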

How the results depend on the processing

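Under 12 alternative settings and 28 left-out libraries, 3039 of 3264 values of named members kept direction and side of the threshold, 177 lost and 38 gained the call, and 10 changed sign. Leaving out single libraries gave 74 to 78 members called in CD31 breast BrM, 78 to 78 in CD31 lung BrM, 0 to 0 in CD31 lung against breast BrM, 71 to 76 in PDGFRb breast BrM and 71 to 77 in PDGFRb lung BrM. It gave 0 to 8 in PDGFRb lung against breast BrM. Between the sorts it gave 2 to 4 without tumor, 1 to 2 with breast BrM and 1 to 10 with lung BrM, and 1 to 2 and 0 to 6 for the difference of the breast and lung changes.

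With the date as a covariate, members called were 28 in CD31 lung BrM, 7 in PDGFRb breast BrM, 0 in PDGFRb lung against breast BrM, 4 between the sorts in lung BrM, and 0 and 0 for the breast and lung differences; the cause was not tested. Without the 3 PDGFRb lung libraries low in Pdgfrb, they were 18 in PDGFRb lung BrM, 0 in PDGFRb lung against breast BrM, 1 and 0 between the sorts in breast and lung BrM, and 0 for the lung difference, with fewer libraries. Without the lung samples of 2 mouse numbers, they were 0 in PDGFRb lung against breast BrM, 0 between the sorts in lung BrM and 0 for the lung difference. With mouse 54135 grouped by its cell type label, they were 0 between the sorts in non-tumor brain (0.0% of all genes higher and 0.0% lower in that fit) and 0 and 0 for the breast and lung differences (0.0216% and 0.394% of all genes higher, 0.232% and 1.39% lower). Its library titled CD31 held 1266 CPM of Pecam1 and the one titled PDGFRb 4.98 CPM. Members called without this mouse were 0 for the lung difference. Raw totals gave 5 between the sorts in lung BrM and 4 for the lung difference, DESeq2 4 and 4, no filter 1 and 1 (and 1 between the sorts in breast BrM), and RLE factors 1 for the lung difference. With the mouse as a replicate block, 1, 0 and 1 members were called between the sorts in non-tumor, breast and lung brain, and 0 and 0 for the differences.

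As a share of summed FPKM, members held 11.4%, 12.8% and 5.35% in the CD31 groups (breast BrM, lung BrM, non-tumor) and 10.4%, 14.2% and 5.04% in the PDGFRb groups. Single libraries moved the mean shares of counts within 3.07 to 3.69%, 3.53 to 4.37% and 1.25 to 1.38% in the CD31 and 3.17 to 3.65%, 4.37 to 5.11% and 1.21 to 1.45% in the PDGFRb groups. Sign changes, none past the threshold, were those of Rpl39l in CD31 breast BrM (-0.0786 to 1.54 with single libraries left out, negative without mouse 53142) and, in CD31 lung against breast BrM, of Rpl6 (-0.171 to 0.231, and -0.495 with the date), Rps27l (-0.247 to 0.00447, and 0.0573 without lung samples of 2 mouse numbers), Rps28 (-0.271 with the date) and Rps7 (-0.0677 with the date). The median of all genes in PDGFRb breast BrM was -0.156 with TMM, -0.273 with RLE and -0.377 with raw totals, and in PDGFRb lung BrM -0.0275, -0.148 and -0.219. Leaving out libraries in the fold limits of Rpl3l and Rpl39l was added after the data were seen.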
